A study of Mus musculus with 48 samples.

Results

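The comparison described here concerns RNA on phosphorylated ribosomes of the dorsal vagal complex (DVC) after saline and after an injection labelled Combo. From the series title, this combination is taken here to join GLP-1 and CCK receptor agonists. The DVC is the hindbrain region that receives vagal signals from the gut. The members were chosen by their labels: 3 combination and 3 saline immunoprecipitation (IP) libraries, that is 6 of the 48 libraries of the series. The main reading was kept to genes with at least 1 count in each of the 6 libraries, which were 9598 of the 19975 genes with a count in any of them and of the 38293 genes in the table.

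All mice were male C57/Bl6 of 9 weeks, kept on chow and fasted for 6 h. Injections were intraperitoneal, at 10 µL per g of body weight. Saline alone was given to the control group. The combination group, labelled Combo, received a mixture whose components the sample labels do not name. The single-drug groups of the series received AC3174, a GLP-1 receptor agonist, or AC170222, listed in the treatment field as AC710222. The protocol shared by all samples lists AC3174 at 1 µg/kg and AC170222 at 2.5 µg/kg. It also lists AC710222 at 2.5 or 10 µg/kg and exenatide, another GLP-1 receptor agonist, at 1 µg/kg. No sample used here is labelled with exenatide. The series title speaks of GLP-1 and CCK. The labels state neither the doses in the mixture nor the delay before dissection, and they do not say how many mice make up a sample. Nothing states that replicates were separate mice, so p-values measure the spread between these samples, which may be technical. The IP pulled down ribosomes of the whole DVC homogenate with an antibody against ribosomal protein S6 phosphorylated at serines 240 and 244, so every cell type that carries the mark contributed. Total RNA of a small part of each homogenate was sequenced as input.

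Phosphorylation of S6 by S6 kinases follows activation of mTOR complex 1, which also promotes the translation of ribosomal protein mRNAs. In neurons it rises with activity, so ribosomes pulled down by it are enriched for mRNAs of active cells. GLP-1 receptors signal mainly through Gs, cAMP and protein kinase A. CCK receptors signal mainly through Gq, phospholipase C and calcium. Both hormones reduce food intake through vagal and hindbrain neurons.

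Total counts lay between 116664549 and 191252522 in the saline libraries and between 109464360 and 155459852 in the combination libraries. Saline libraries held counts for 14967, 14153 and 12652 genes, and combination libraries for 16151, 14857 and 15667 genes. The groups overlapped, and the difference of 1634 genes gave p = 0.2 in a two-sided exact permutation test, where 3 against 3 cannot go below 0.1. Genes with at least 10 counts numbered 12753, 12268 and 10152 with saline and 14438, 12962 and 13772 with the combination. Here the groups did not overlap (exact permutation p = 0.1). A set of 9824 genes was counted in every saline and combination input, with a mean of at least 10 CPM over these inputs. CPM is the count of a gene scaled to a common library total. Of these genes, 5.75%, 6.56% and 16.3% were at 0 in the saline IP libraries. The shares in the combination IP libraries were 1.03%, 5.64% and 3.17% (exact permutation p = 0.1, the smallest possible). Saline 3 therefore lacked the most transcripts. It also had the highest share of mitochondrially encoded reads, 0.205% against 0.00403% to 0.0447% in the other 5. Saline libraries came from plate columns 1 to 3 and combination libraries from columns 4 to 6, so plate position and treatment cannot be told apart. The hindbrain and visceral motor genes Hoxb5, Chat and Th were counted in all 6 libraries. Phox2a and Dbh, also hindbrain visceral genes, were at 0 in 2 saline libraries each, and the hypothalamic genes Agrp, Pmch, Hcrt, Sim1 and Nkx2-1 never exceeded 2.05 CPM.

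No gene passed the test in the 9598 genes counted everywhere. edgeR's quasi-likelihood test called 0 genes, a share of 0%, at a Benjamini-Hochberg adjusted p under 0.05, and the lowest adjusted p was 0.589. At an unadjusted p under 0.05 it listed 389 genes (4.05%), 204 higher (2.13%) and 185 lower (1.93%) with the combination. DESeq2 called 130 genes, 85 higher and 45 lower, and limma-voom called 1 (Cyb5d2). The values of all 3 combination libraries lay above all 3 saline libraries for 551 genes (5.74%) and below them for 603 (6.28%), in all 12% of the genes tested. These shares are the background for every count of non-overlapping members given here. The precision was low: in genes of 10 to 100 CPM the median 95% interval reached a factor of 3.72 to either side, and in genes of 100 to 1000 CPM a factor of 1.82.

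The genes with the smallest p among the higher ones fell into well-counted genes and genes that saline nearly lacked. Rab10, a small GTPase of vesicle transport to the plasma membrane, was at 96.9, 89.3 and 100 CPM with saline and at 281, 455 and 427 CPM with the combination. Every combination library was well above every saline library. The log2 difference was 2.02 ± 0.28 (SE, n = 3 per group; edgeR adjusted p = 0.59). In the input Rab10 was at 407, 282 and 346 CPM with saline and at 294, 321 and 291 CPM with the combination, a log2 difference of -0.19 ± 0.16. The combination IP values thus lay near the input values of both groups, and the saline IP values lay below them. In the 3 IP libraries of AC3174 alone Rab10 was at 365, 416 and 325 CPM, and in those of AC170222 alone at 82.4, 84.7 and 336 CPM. With plate column pair (neighbouring columns) in a fit of all 12 DVC IP libraries the Rab10 difference was 0.93. In that fit saline and combination share a pair only through saline 3 and combination 1. Values from it, here and below, therefore cannot separate plate position from treatment.

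The casein kinase 1 genes Csnk1d and Csnk1a1 stood among the higher ones. Csnk1d encodes a kinase of the clock protein PER. It was at 92.1, 80.0 and 86.4 CPM with saline and at 266, 251 and 308 CPM with the combination. The groups were far apart, with a log2 difference of 1.67 ± 0.26 (edgeR adjusted p = 0.59). Csnk1a1, casein kinase 1 alpha of the beta-catenin destruction complex, was at 153, 153 and 118 CPM with saline and at 360, 415 and 556 CPM with the combination, a difference of 1.65 ± 0.28 (edgeR adjusted p = 0.59). It too showed no overlap. In the input Csnk1d differed by -0.14 ± 0.14 and Csnk1a1 by -0.08 ± 0.14. In the IP of the single drugs Csnk1a1 was at 454, 447 and 233 CPM with AC3174 and at 202, 213 and 229 CPM with AC170222. Every one of these libraries lay above every saline library. Csnk1d was at 299, 197 and 72.0 CPM with AC3174 and at 213, 135 and 268 CPM with AC170222. Only AC3174 3 was not above saline. Of the 9 casein kinase genes 7 were tested, and the other 5 of these overlapped between groups, with log2 differences from -1.23 (Csnk1g3) to 0.59 (Csnk1e). Csnk1g1 and Csnk2a2 were counted in 2 saline libraries and all 3 combination libraries, so they were not tested.

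4 more genes of this kind were well counted or nearly so. Fech, ferrochelatase of the last step of haem synthesis, was at 53.9, 57.9 and 33.5 CPM with saline and at 191.3, 156 and 244 CPM with the combination (log2 difference 2.02 ± 0.37, edgeR adjusted p = 0.79). Its input difference was 0.48 ± 0.16. Pip5k1c, which makes the phospholipid PI(4,5)P2 at synapses, was at 116, 117 and 81.2 CPM against 300, 267 and 228 CPM (1.34 ± 0.29, edgeR adjusted p = 0.93). Neither gene overlapped between groups. With plate column pair in the fit the Pip5k1c difference was 0.24. Hnrnpu, a nuclear RNA-binding protein, was at 59.4, 93.3 and 122 CPM with saline and at 166, 588 and 519 CPM with the combination (2.21 ± 0.53, edgeR adjusted p = 1.0). Its values did not overlap either, but combination 1 lay close to the saline range, and the difference was 1.08 with plate column pair in the fit. Zfp12, a zinc finger gene, had 2.80, 1.02 and 1.05 CPM with saline and 10.1, 71.0 and 35.6 CPM with the combination.

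The other 5 higher genes were almost absent from saline IP libraries although their input levels were ordinary. Cyb5d2, a haem-binding cytochrome b5-domain protein, had 12, 1 and 7 counts with saline and 6952, 4130 and 2280 counts with the combination. Its input held 30.2 CPM with saline and 23.8 CPM with the combination on average. The Y-linked histone demethylase gene Uty had 12, 2 and 3 counts against 7287, 1946 and 1339. Hace1, an E3 ubiquitin ligase gene, had 7, 14 and 1 counts against 3416, 3838 and 5905. Atp13a2, a lysosomal polyamine transporter gene, had 57, 24 and 123 counts against 5683, 2025 and 4453, and Prr5l, whose product binds mTOR complex 2, had 9, 10 and 11 counts against 11125, 1353 and 676. Each of these 5 was counted in all 6 libraries and so passed the restriction, with saline levels below 1 CPM. Of the 551 genes whose combination values lay above saline, 371 (67.3%) had at least 10 counts in each library, and 180 had a saline library under 10 counts. Of the 603 whose values lay below, 555 (92.0%) had 10 counts in each. Of these 603, 48 had a combination library under 10 counts and 19 a saline library. Of the 551, 20 had such a combination library. Over all genes tested 1643 had such a saline library and 888 such a combination library. Over all genes tested the share with 10 counts in each library was 80.7%.

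**Figure D1:**
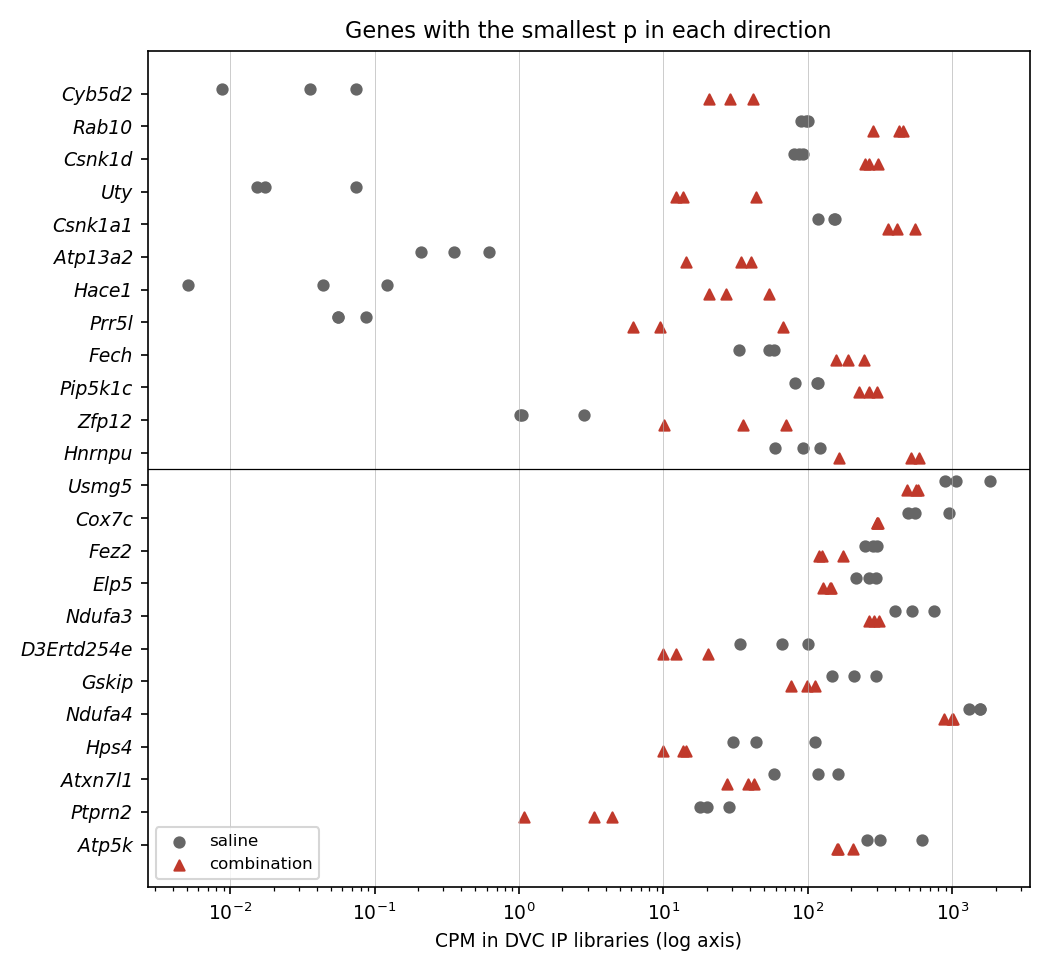
CPM (log axis) of the 12 higher and the 12 lower genes with the smallest p, in 3 saline (grey circles) and 3 combination (red triangles) DVC IP libraries. No gene passed the test. Cyb5d2, Uty, Atp13a2, Hace1 and Prr5l lie below 1 CPM in every saline library, and none of the 12 lower genes is below 1 CPM in any library.

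Of the 12 lower genes with the smallest p, 4 (Cox7c, Ndufa3, Ndufa4 and Atp5k) belonged to the list of nuclear-encoded respiratory chain genes. Cox7c, a small subunit of cytochrome c oxidase, was at 555, 493 and 946 CPM with saline and at 303, 308 and 301 CPM with the combination (log2 difference -1.13 ± 0.30, edgeR adjusted p = 1.0). The combination libraries were close to each other and below all saline libraries, of which saline 3 was the highest. Input values of Cox7c averaged 238 CPM with saline and 206 CPM with the combination, a difference of -0.21 ± 0.22. Ndufa4, another cytochrome c oxidase subunit, was at 1571, 1314 and 1555 CPM against 873, 997 and 1010 CPM (-0.62 ± 0.19). Its saline libraries were close together, and no library overlapped with the other group. Ndufa3 of complex I was at 528, 402 and 746 CPM against 265, 309 and 287 CPM (-0.96 ± 0.28). Usmg5 and Atp5k, which encode small subunits of ATP synthase, differed by -1.20 ± 0.31 and -1.18 ± 0.38. Without saline 3 Usmg5, Cox7c and Atp5k differed by -0.84, -0.79 and -0.71.

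The remaining lower genes had other roles. Fez2, a relative of the axonal transport adaptor FEZ1, was at 281, 249 and 300 CPM with saline and at 126, 119 and 175 CPM with the combination (-0.98 ± 0.27, edgeR adjusted p = 1.0). Elp5, a subunit of the Elongator complex that modifies tRNA wobble bases, was at 214, 264 and 296 CPM against 144, 129 and 144 CPM (-0.90 ± 0.26). Gskip, which binds GSK3 and protein kinase A, differed by -1.19 ± 0.36. None of the 3 overlapped between groups. Hps4, Atxn7l1, Ptprn2 and D3Ertd254e had larger differences, from -1.64 (Atxn7l1) to -2.91 (Ptprn2), at lower levels. With plate column pair in the fit the difference of D3Ertd254e was 4.48, the opposite sign.

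Ribosomal protein and respiratory chain genes supplied 37 and 36 of the 603 genes that were lower without overlap. Cytosolic ribosomal proteins form the 2 subunits of the ribosome, and their mRNAs classically begin at a C followed by a run of pyrimidines, the 5' terminal oligopyrimidine (TOP) motif through which mTOR complex 1 controls their translation. The bases around the annotated start are shown for 6 members, 3 that begin with a C and 4 pyrimidines and 3 that do not, because the start sets the motif. The first 20 bases, in lower case, lie before the start and the last 10, in capitals, are the first bases of the transcript, 5' to 3' on the gene's strand. They were read from RefSeq on build GRCm38.p6. Rps6 lies at chr4:86857358-86857387 (minus strand), Rps27 at chr3:90213639-90213668 (minus) and Rpl38 at chr11:114668560-114668589 (plus). Rpl37 lies at chr15:5116593-5116622 (plus), Rps25 at chr9:44407694-44407723 (plus) and Rpl41 at chr10:128549159-128549188 (minus). Each window holds upstream sequence and 5' UTR.
Rps6: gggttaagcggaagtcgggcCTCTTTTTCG
Rps27: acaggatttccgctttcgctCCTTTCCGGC
Rpl38: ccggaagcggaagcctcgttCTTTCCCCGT
Rpl37: gaagtagtttcctgggcggaAGCTTATCCA
Rps25: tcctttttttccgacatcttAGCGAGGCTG
Rpl41: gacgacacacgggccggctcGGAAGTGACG

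Of 82 cytosolic ribosomal protein genes 79 were tested. Rpl10l and Rpl39l were at 0 in all 6 libraries, and Rpl3l was counted in 1. None was called. Of the 79, 76 had a negative and 3 (Rpl4, Rpl10 and Rpl22) a positive log2 difference. In 37 (46.8%) every combination library was below every saline library, against 6.28% of all genes tested, and in 0 every combination library was above. The median difference was -0.72, against -0.05 over all genes tested, and 14 members had an unadjusted p under 0.05. In the input the median of the same genes was -0.08. Nuclear-retained RNAs and red blood cell genes also had negative differences. Of 8 nuclear-retained RNAs 5 were tested and all 5 were negative (median -1.60), with summed levels of 765, 561 and 2191 CPM with saline and 966, 175 and 235 CPM with the combination. Malat1 among them was at 517, 361 and 1360 CPM against 541, 67.9 and 124 CPM. The 4 tested of 6 red blood cell genes were all negative (median -1.24) and summed to 116, 391 and 697 CPM against 80.7, 250 and 186 CPM. Both lists overlapped between groups and were highest in saline 3, without which their medians were -0.51 and -0.53. Their part in the ribosomal protein and respiratory chain differences was not tested. Reads of ribosomal protein genes can be shared with their many processed pseudogenes, so the level of any 1 of them is uncertain.

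Rps6, whose product carries the phosphorylation used for the pulldown, was at 151, 181 and 242 CPM with saline and at 119, 115 and 115 CPM with the combination. The combination libraries were close to each other and below all saline libraries (-0.72 ± 0.30, edgeR adjusted p = 1.0). In the input Rps6 averaged 124 and 121 CPM. Rps29 was at 151, 147 and 437 CPM against 88.5, 107 and 79.9 CPM (-1.42 ± 0.49), Rpl38 at 200, 178 and 338 CPM against 113, 137 and 109 CPM (-0.99 ± 0.33), and Rps25 at 186, 167 and 355 CPM against 127, 117 and 96.5 CPM (-1.05 ± 0.37). These 3 had the smallest p of the list, and in each saline 3 was the highest by far. The lowest difference of the list was that of Rps27, -1.64 ± 0.73, with 34.6, 25.3 and 97.5 CPM against 21.6, 17.1 and 11.7 CPM, and Rpl37 differed by -1.39 ± 0.55 and Rpl41 by -1.25 ± 0.47. Rps27, Rpl37 and Rpl41 were chosen after their values were seen.

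The summed level of the 79 genes was 9925, 10509 and 17821 CPM with saline and 8560, 8275 and 7728 CPM with the combination. All 3 combination libraries lay below all saline libraries, and saline 3 stood apart. Per library, the median log2(CPM + 1) of the list relative to the saline mean was -0.27, -0.27 and 0.56 with saline and -0.61, -0.60 and -0.71 with the combination. The single-drug libraries spanned both ranges: -1.01, -0.53 and -0.04 with AC3174 and -0.13, -0.10 and -1.12 with AC170222. Without saline 3 the median difference of the list was -0.38. Below all remaining saline libraries lay 37 members (46.8%, against 11.5% of all genes tested). This count cannot fall when a library is left out, and the share over all genes rose from 6.28%. Combination 1 and saline 3, which share a pair of neighbouring plate columns, differed by -1.10 in the list's median, with 73 of 79 members lower in combination 1. The lowest library of each single drug, AC3174 1 and AC170222 3, came from columns 4 and 3, the same pair. Saline 3, the highest saline library, was in column 3 too. The part of plate position was not tested.

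Of 77 nuclear-encoded respiratory chain genes 76 were tested (Cox6a2 was counted in only 2 libraries), and none was called. 64 had a negative and 12 a positive difference. In 36 (47.4%) all combination libraries were below all saline libraries and in 2 (Atp5s and Uqcrc1) all were above. The median was -0.39, and 0.02 in the input, and 19 members had an unadjusted p under 0.05. Their summed level was 53966, 53722 and 58992 CPM with saline and 37884, 48596 and 47289 CPM with the combination, with no overlap. The median per library relative to the saline mean was -0.06, -0.11 and 0.17 with saline and -0.59, -0.34 and -0.27 with the combination. It was -0.79, -0.27 and -0.15 with AC3174 and -0.05, -0.04 and -1.12 with AC170222. AC3174 1 and AC170222 3, which share a plate column pair with combination 1 and saline 3, were again the lowest of their groups. Among the 12 positive members, Sdha, the flavoprotein subunit of succinate dehydrogenase, differed by 0.31 ± 0.22, and Uqcrc1, a core subunit of complex III, was at 1284, 1368 and 1138 CPM with saline and at 1756, 1686 and 1426 CPM with the combination (0.36 ± 0.19). Both were chosen after their values were seen.

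**Figure D2:**
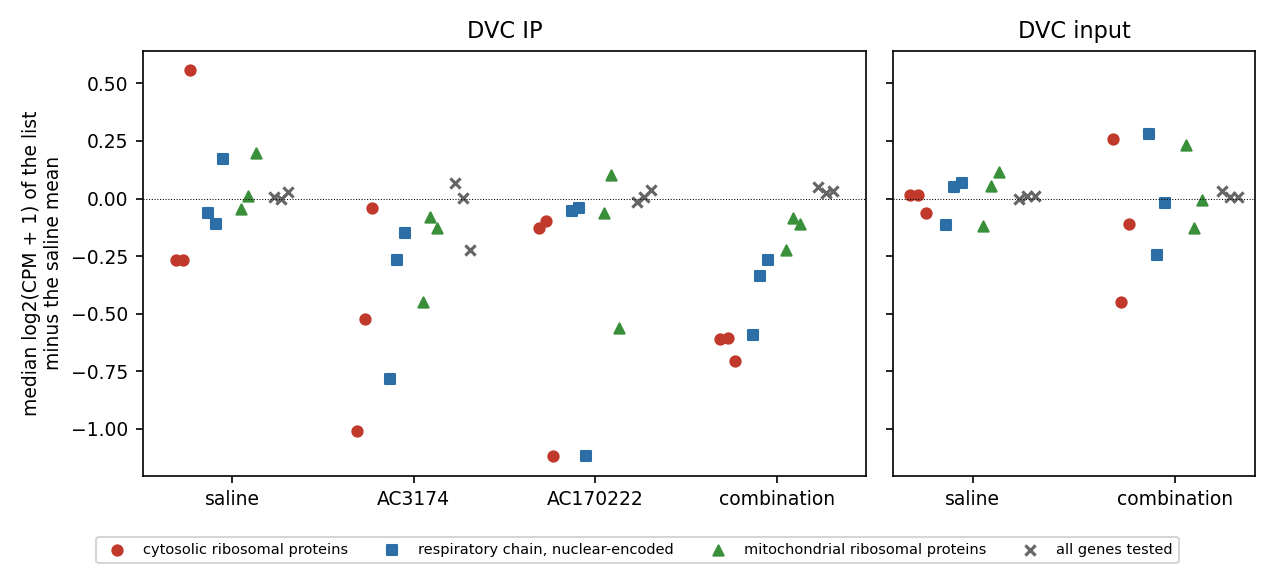
Median log2(CPM + 1) of 4 gene sets in each library, relative to the saline mean, in the 12 DVC IP libraries (left) and the 6 saline and combination inputs (right). Each point is 1 library. Ribosomal protein genes (red) lie between -0.71 and -0.60 in the combination IP libraries, below all saline IP libraries, while 1 library of each single drug lies lower still.

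Other translation and mitochondrial lists had medians nearer to 0 or overlapping groups. Of 75 mitochondrial ribosomal protein genes tested, 54 were negative, with a median of -0.17. 8 (10.7%) were below saline in all combination libraries and 1 (1.33%) was above. Over all genes tested these shares were 6.28% and 5.74%. Of 39 translation factors 24 were negative, with a median of -0.11. 6 (15.4%) were below (among them Eif1ax, Eif1 and Tpt1) and 1 (2.56%) was above. The 6 mitochondrially encoded mRNAs counted in all libraries all had negative differences (median -2.44), but their groups overlapped. mt-Co1 was at 17.0, 49.4 and 325 CPM with saline and at 69.1, 12.5 and 13.8 CPM with the combination. Saline 3 was the highest library and combination 1 the highest of its group. Without saline 3 the median of this list was -0.49, and without combination 1 it was -4.21, with all 6 members below saline.

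Annotated exon length moved with the difference. It joins all annotated exons of a gene, so it can exceed the length of the transcripts present, which was not measured. Exon length was known for 9460 of the 9598 genes, with a median of 4020.5 bases over all of them. The median was 1781 in ribosomal protein genes and 1737 in respiratory chain genes. Outside the cytosolic and mitochondrial ribosomal protein and respiratory chain lists, the median difference was -0.32 in genes up to 1000 bases, -0.19 from 1000 to 2000, -0.04 from 2000 to 4000, 0.05 from 4000 to 8000 and 0.12 above 8000. The share of these genes with all combination libraries below saline went from 9.49% in the shortest to 3.31% in the longest. Within the same ranges of exon length the ribosomal protein genes had medians of -0.99 (11 genes), -0.81 (33), -0.59 (29) and -0.49 (6). The respiratory chain genes had medians of -0.45 (16), -0.51 (30), -0.09 (20) and -0.32 (9). The part of transcript length in these results was not tested.

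The motif searched was a C at the first transcribed base followed by 4 bases that are each C or T, read on the gene's strand. It was present in 13 of the 59 ribosomal protein genes with a RefSeq window (22%), in 3.24% of all tested genes with a window, in 6.56% of respiratory chain genes and in 2.51% of all windows of the table. The 13 had a median difference of -0.77, with 8 below saline in all combination libraries, and the 46 without it had a median of -0.62, with 16 below. Annotated starts can differ by some bases from those used in this tissue. In the Rps25 window a run of pyrimidines lies before the annotated start. The split therefore sorts genes by annotated start, which may not be the start in use.

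Of 41 mTOR and S6 kinase pathway genes 33 were tested, 17 positive and 16 negative, with a median of 0.02 and none called. 6 (18.2%, against 6.28% of all genes tested) were below saline in all combination libraries. 4 of them, Lamtor2, Lamtor3, Lamtor4 and Lamtor5, encode subunits of the Ragulator complex that recruits mTOR complex 1 to lysosomes, and the others were Rps6 and Rictor, the defining subunit of mTOR complex 2. Lamtor5 was at 457, 294 and 482 CPM with saline and at 247, 228 and 224 CPM with the combination (-0.82 ± 0.27, edgeR adjusted p = 1.0), while its input difference was 0.28 ± 0.17. 3 (9.09%, against 5.74% of all genes tested) were above saline: Akt2, Rheb and Pdpk1. Akt2 was at 47.4, 26.4 and 60.9 CPM with saline and at 62.2, 129 and 135 CPM with the combination (1.27 ± 0.51). Rheb differed by 0.91 ± 0.49 and Pdpk1 by 0.86 ± 0.93. Rheb is the GTPase that activates mTOR complex 1, and Pdpk1 the kinase that activates AKT. In Pdpk1 and Rheb saline 3 was far below the other saline libraries, with 4.41 and 69.5 CPM.

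No gene of the signalling pathways of the 2 receptors was called. Of 35 cAMP and protein kinase A genes 27 were tested, 15 positive and 12 negative, and 2 (7.41%, against 5.74% of all genes tested) lay above saline in all combination libraries. Prkacb, a catalytic subunit of protein kinase A, was at 531, 528 and 372 CPM with saline and at 704, 755 and 794 CPM with the combination (0.65 ± 0.23, edgeR adjusted p = 1.0), and its input difference was 0.28 ± 0.11. The other was Pde10a, which breaks down cAMP and cGMP (1.78 ± 1.67). Of 31 Gq, phospholipase C and calcium genes 24 were tested, 13 positive and 11 negative. 3 (12.5%) lay above saline: Gna11, a Gq-class alpha subunit (1.38 ± 0.88), Camk2b, the beta subunit of calcium/calmodulin kinase II (0.62 ± 0.32), and Ppp3ca, calcineurin A alpha (0.32 ± 0.23). None was below. Of 27 MAP kinase genes 23 were tested, and Mapk9, a JNK gene, alone lay above saline (4.35%). It was at 345, 329 and 355 CPM against 357, 652 and 639 CPM.

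The receptors themselves were below what the IP libraries could follow. None of the 9 GLP-1 and CCK peptide and receptor genes was counted in all 6 libraries. Glp1r had 0, 0.87 and 0 CPM with saline and 1.25, 0 and 0 CPM with the combination. Cckar and Cckbr were counted in saline 2 alone, at 28.5 and 13.6 CPM, and were at 0 in the other 5 libraries. Gcg, the proglucagon gene, was at 0 in all saline libraries and at 16.3, 0 and 1.97 CPM with the combination. In the input Cckbr was counted in all 6 libraries, from 4.44 to 10.7 CPM, and Glp1r in 2 combination libraries, at 3.94 and 0.81 CPM. A count of 0 in all 3 saline libraries allows a level of up to 0.00636 CPM over the group for counting error alone, which does not cover loss before amplification.

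Immediate early genes, which neurons transcribe within minutes of activation, held no called member. Of 35 listed 15 were tested, 8 positive and 7 negative, with a median of 0.24 and 0 members outside the other group's range in either direction. Fos was at 36.2, 70.0 and 0 CPM with saline and at 56.8, 34.6 and 68.6 CPM with the combination. Junb was at 48.5, 32.8 and 0 CPM against 33.7, 53.5 and 32.8 CPM. Both were at 0 in saline 3 and overlapped otherwise. Jun was at 5.45, 31.6 and 39.4 CPM against 13.8, 238 and 163 CPM (2.44 ± 1.10, edgeR adjusted p = 1.0), and this difference was -0.64 with plate column pair in the fit. Nr4a1, an orphan nuclear receptor gene, was at 0 in all 3 saline libraries and at 10.9, 6.02 and 18.1 CPM with the combination (adjusted p = 0.49 by edgeR in the whole table). In the input it was present in both groups, at 16.5, 13.8 and 10.1 CPM and 16.4, 9.51 and 12.6 CPM. Fosb was at 0 with saline and at 7.68, 0.71 and 1.40 CPM with the combination, Arc was at 40.2, 45.5 and 0 CPM against 19.3, 0 and 30.7 CPM, and Npas4 was at 0 in all 6. In the input Fos was at 20.0, 23.8 and 14.3 CPM with saline and at 43.6, 38.0 and 28.6 CPM with the combination, with no overlap.

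**Figure D3:**
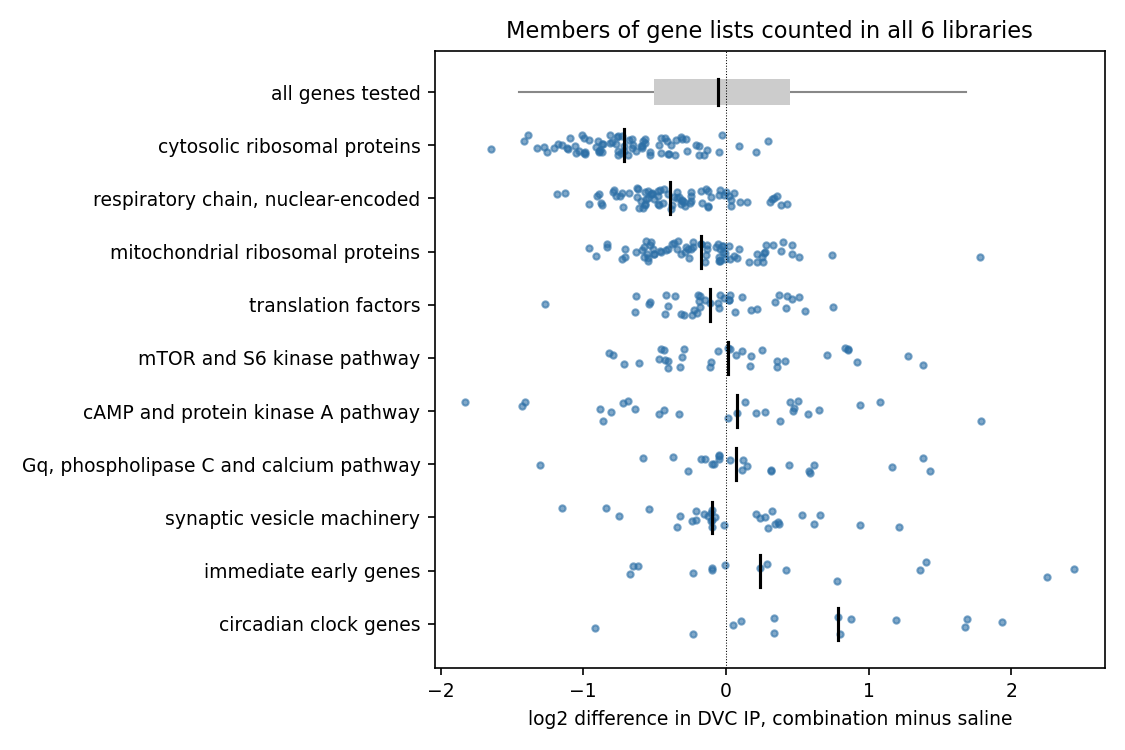
Log2 difference (combination minus saline) in the DVC IP for the tested members of 10 gene lists, 1 point per gene, with the list median as a black line. For all genes tested the grey box spans the middle 50% and the line the 5th to 95th percentile. Ribosomal protein and respiratory chain genes have medians of -0.72 and -0.39.

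Genes left out by the restriction were more often missing from saline. 198 genes (0.991% of the 19975) were at 0 in all saline libraries and counted in all combination libraries, and 29 (0.145%) the other way round. 2086 genes were counted in 2 saline and all 3 combination libraries, against 529 counted in 3 saline and 2 combination libraries. Mtmr10, a myotubularin-related gene, had 46.7, 55.8 and 49.9 CPM with the combination and was at 0 with saline, although its saline inputs held 43.4, 66.5 and 12.3 CPM. Mlh3, of DNA mismatch repair, had 23.9, 49.9 and 20.3 CPM, with 14.5, 16.7 and 4.44 CPM in the saline inputs. Srl, Dnali1, Dzip1l and Zfp809 followed, with means of 23.9, 20.2, 18.6 and 17.2 CPM. Presence was not particular to the combination. Mtmr10 had 8163, 2075 and 0 counts in the IP of AC3174 alone and 4964, 4462 and 900 in that of AC170222 alone. Mlh3 had 9909, 6628 and 838 counts with AC3174 and 2551, 1720 and 4341 with AC170222. The genes found with saline and not with the combination were led by Ackr3, a CXCL12-binding receptor, at 0.53, 5.23 and 44.9 CPM. Vash2, A930033H14Rik, Enpep, Cyp2j9 and Tarm1 followed. Of these, Vash2 was counted in every single-drug IP library. With all 12 IP libraries in 1 fit, edgeR called 0 of 15815 genes (0%), 861 (5.44%) had an unadjusted p under 0.05, DESeq2 called 942 and limma-voom 8.

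In total RNA the same comparison called no gene. edgeR called 0 of the 9078 genes that were counted in all 12 IP and input libraries of the 2 groups (0%), and 417 (4.59%) had an unadjusted p under 0.05. DESeq2 called 25. The change of the IP relative to the input had an unadjusted p under 0.05 in 4.89% of these genes. It was called for 9 (0.0991%), all of them higher with the combination, from 1.79 to 10.50 on the log2 scale. They were Rab10, Csnk1d, Cyb5d2, Uty, Hace1, Atp13a2, Prr5l, Ccnl1 and E430018J23Rik. Rab10 (2.19 ± 0.31, edgeR adjusted p = 0.028) and Csnk1d (1.79 ± 0.23, edgeR adjusted p = 0.023) were well counted in every library. The other 7 had fewer than 150 counts in each saline IP library. IP and input of the same number come from 1 homogenate, and with the replicate number as a block 0 genes were called. The call also rested on each combination library: 0 genes were called without any 1 of the 3, and 17, 27 and 13 were called without saline 1, 2 and 3. Csnk1a1 had a ratio change of 1.71 ± 0.28 (edgeR adjusted p = 0.070).

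**Figure D4:**
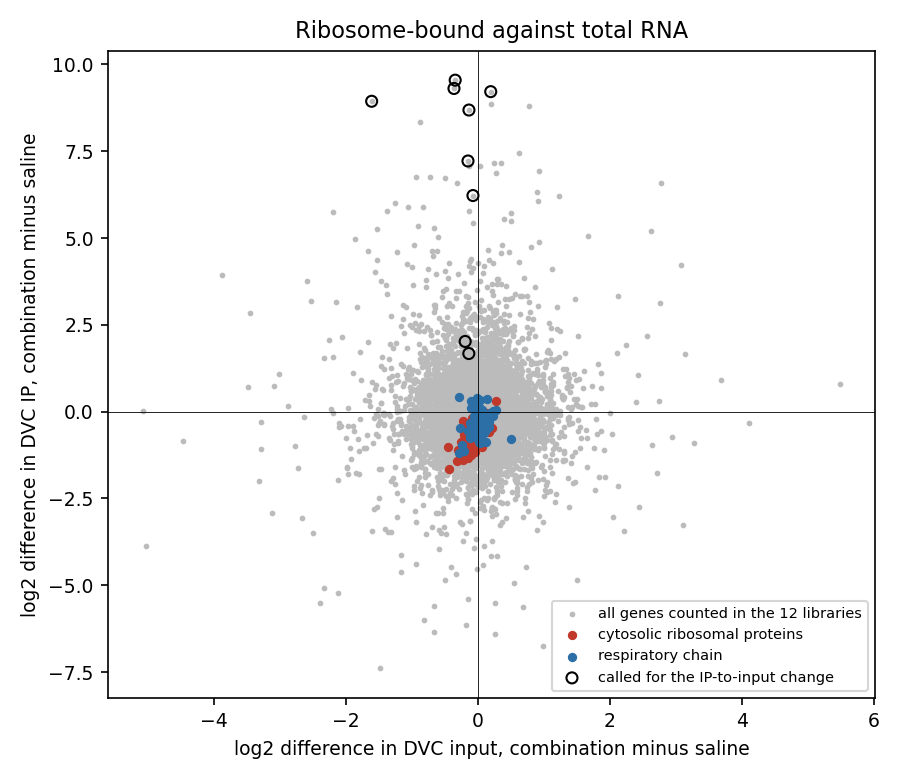
Log2 difference (combination minus saline) in the IP against that in the input for 9078 genes (grey), with ribosomal protein genes in red, respiratory chain genes in blue and the 9 genes called for the IP-to-input change circled. Circled genes differ by 1.67 (Csnk1d) or more in the IP and, in the input, lie between -1.61 and 0.20.

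Markers of other cell types gave no group difference that passed the test. In bulk RNA fewer cells of a type and less RNA per cell cannot be told apart. Of 14 astrocyte markers 12 were tested, 10 positive and 2 negative, with a median of 0.90 (input -0.23). 1 (8.33%, against 5.74% of all genes tested) lay above saline, Slc6a11, a GABA transporter gene. The summed level of the 12 overlapped between groups, 3624 to 6194 CPM with saline and 4074 to 13888 CPM with the combination. Gfap was at 701, 568 and 208 CPM with saline and at 266, 637 and 711 CPM with the combination. Oligodendrocyte markers (8 of 14 tested) summed to 2004, 2142 and 3005 CPM against 5820, 1677 and 1473 CPM, and no member was outside the other group's range. None of 14 microglial markers was counted in all 6 libraries. The part of cell composition in the ribosomal protein and respiratory chain differences was not tested.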

How the data were processed

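The authors deposited raw, whole-number counts of reads per gene. TopHat2 2.0.11, HTSeq 0.6.1p1 and build GRCm38 are named in the submitters' processing notes, with neither annotation nor strand setting. Per the labels' protocols cDNA was amplified with a SMART-Seq v4 kit and tagmented, which keeps no strand, so overlapping genes cannot be told apart. No molecular identifiers are mentioned, so limits from counts cover counting error only. GENCODE M21 matched 36429 of 38293 identifiers, and 9460 of the 9598 genes tested.

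CPM values (counts over TMM-scaled library totals), TMM factors and tests were computed here with edgeR 4.0.16 (quasi-likelihood, two-sided, Benjamini-Hochberg over all genes tested) in R 4.3.3, with limma 3.58.1 and DESeq2 1.42.0 as alternatives. The edgeR fit of the 6 IP libraries, over genes counted in each, was tested on simulated data. Named genes were the 12 with the smallest p per direction (mean of at least 10 CPM), the 3 with the smallest p of each of 36 gene lists, a few set genes and the 6 highest genes found in 1 group only; all other named genes were chosen after their values were seen. Members and lists were chosen with earlier results of these data known. No replicates were copies of a library (chi-square per degree of freedom at least 871.4). IP and input of 1 number share a homogenate; their deviations from the group means correlated at -0.07 to 0.05 over 7528 genes. Alternatives were scalings, filters, tools, a replicate block, plate column pairs and leaving out each library.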

Additional observations from a re-analysis of the deposited data

Results flagged for a closer look

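For 9 genes the IP difference between combination and saline departed from the input difference, by edgeR's quasi-likelihood test of the interaction over 9078 genes (adjusted p from 0.0133 to 0.0479, 3 libraries per group and RNA kind). The log2 change of the IP over that of the input was 2.193 for Rab10 and 1.788 for Csnk1d. In the other 7 genes every saline IP library held fewer than 150 counts, so the size of their fitted change depends on near-zero counts and is no measure of a fold. It was 7.358 for Ccnl1, 8.789 for Prr5l, 6.259 for Atp13a2, 9.022 for Hace1, 9.851 for Cyb5d2, 9.632 for Uty and 10.5 for E430018J23Rik. IP and input of 1 number share a homogenate, which this fit ignores. With the replicate number as a block 0 of the 9078 genes were called, and 0 were called without any 1 of the 3 combination libraries. In all 9 every combination IP library was above every saline IP library. Ccnl1, a cyclin of RNA splicing, was at 0.01, 0.07 and 0.01 CPM in the saline IP and at 3.90, 5.54 and 3.40 CPM in the combination IP, with input means of 32.3 and 29.2 CPM. E430018J23Rik, a zinc finger gene, was at 0.01, 0.04 and 0.05 CPM against 26.0, 16.4 and 7.20 CPM. Its input difference was -1.61, the lowest of the 9, so its change over the input includes a lower input with the combination.

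The single-drug IP libraries hold some of the same genes. Cyb5d2 was at 21.5, 16.3 and 18.5 CPM with AC170222 and at 17.9, 29.5 and 0.01 CPM with AC3174. Prr5l was at 0.05, 0.06 and 41.4 CPM with AC170222 and at 38.9, 32.2 and 0 CPM with AC3174.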

How the results depend on the processing

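The count of 0 called genes among those counted everywhere was the same under RLE and upper-quartile scaling, stricter filters, no filter, all 12 IP libraries, plate column pair as a covariate and without any 1 of the 6 libraries. It was 130 with DESeq2, 1 with limma-voom and 1 in 11 libraries without AC3174 3. For the whole table it was 942 with DESeq2, 8 with limma-voom and 0 to 1 when 1 library was left out (1 without saline 1), and for the input 25 with DESeq2. The IP-to-input change gave 0 with the replicate block and 0 to 27 when 1 library was left out. The cause was not tested. Genes at 0 with the combination and counted in every saline library were 5, and the reverse 152, when counted meant at least 10 counts.

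Deviations of saline and combination IP libraries of the same number correlated at 0.04, 0.01 and 0.03. IP and input of 1 number, which share a homogenate, correlated at only -0.07 to 0.05. This measure therefore cannot show whether the numbers pair the treatments. The replicate block left 0 called in the IP, the whole table and the input. Of 117 named genes 28 passed with DESeq2, and the sign differed for 10 with plate column pair and for 6 without saline 3. Ribosomal protein medians ran from -0.96 to -0.38 and respiratory chain medians from -0.52 to -0.30 over 18 settings, all negative. With 3 libraries per group, the median 95% interval in genes of 1 to 10 CPM reached a factor of 8.3 to either side.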

Other observations

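Of 16 circadian clock genes 13 were tested in the IP, 11 positive and 2 negative, against 4485 positive of all 9598 genes, and none was called by edgeR. Their median difference was 0.78 (input -0.15), and 0.32 without combination 3. Relative to the saline mean, the list's median log2(CPM + 1) was 0.61, 1.31 and 1.41 with the combination. It was 2.19, 1.70 and 1.14 with AC3174 alone and 0.64, 0.41 and 0.97 with AC170222 alone, so both single drugs lay above the saline libraries (-0.20, 0.37 and 0.02). Nr1d2, the clock repressor REV-ERB beta, was at 25.7, 104 and 85.2 CPM with saline and at 188, 187 and 311 CPM with the combination (1.67 ± 0.55). Rorb, which acts on the same promoter elements, was at 1.98, 44.9 and 4.69 CPM against 51.4, 53.8 and 92.1 CPM, and Bhlhe40 lay above saline too. These 3 of the 13 (23.1%) lay above saline in every library, against 5.74% of all genes tested. Tef, a PAR-domain output factor, was at 41.6, 128 and 70.5 CPM against 112, 395 and 266 CPM, with overlap. Nr1d2 was at 313, 263 and 162 CPM in the IP of AC3174 alone and at 40.2, 35.2 and 159 CPM in that of AC170222 alone. Bhlhe40 had 0.04 CPM in saline 3 and Rorb 1.98 CPM in saline 1.

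Ecel1, an endopeptidase gene of motor neurons, was at 2.99, 1.72 and 7.16 CPM with saline and at 17.6, 32.5 and 26.9 CPM with the combination (2.70 ± 0.90), while Chat, which makes acetylcholine, overlapped at 227, 603 and 61.2 CPM against 185, 409 and 321 CPM. Adipor1, an adiponectin receptor gene, was at 9.00, 16.2 and 10.0 CPM against 35.9, 39.9 and 48.8 CPM (1.82 ± 0.64), and its input differed by -0.12 ± 0.24. Neither passed edgeR's test over all genes.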
